A study of Arabidopsis thaliana with 6 samples.

Results

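The non-canonical Aux/IAA genes of *Arabidopsis thaliana* are *IAA20* (AT2G46990), *IAA29* (AT4G32280), *IAA30* (AT3G62100), *IAA31* (AT3G17600), *IAA32* (AT2G01200), *IAA33* (AT5G57420) and *IAA34* (AT1G15050). These 7 genes were chosen by identity, as members of the family whose encoded domains are divergent or missing, out of 33316 genes in the tables and beside 22 canonical Aux/IAA genes. Their reads were compared between 3 DEX libraries, from plants treated with 15 µM dexamethasone (Dex) for 3 h, and 3 Mock libraries, from plants that received the mock solution. Both groups are labelled as carrying *p35S:Myc-GR-bdl*, which was driven by the broadly active 35S promoter, and RNA came from the second internode of stems of 15 to 20 cm. The genotype was taken from titles and source names, although the growth text of the same labels speaks of wild-type Col-0. Every library held RNA pooled from several samples. Plants without the transgene were not analysed here (0 libraries), so an effect of Dex itself and one of Myc-GR-bdl cannot be told apart.

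Aux/IAA proteins bind AUXIN RESPONSE FACTORs (ARFs) and recruit a co-repressor through an EAR motif, and this keeps auxin-responsive genes silent. Auxin joins a canonical Aux/IAA protein to its TIR1/AFB receptor through a short peptide, the degron, and the protein is then degraded. Most Aux/IAA genes are themselves targets of ARFs, which makes the family a feedback loop. BODENLOS (BDL, IAA12) is a canonical member, and bdl is a mutant form with an altered degron that auxin no longer destabilises. In the fusion used here bdl enters the nucleus once Dex binds the glucocorticoid receptor (GR) domain. Most non-canonical members lack a working degron or carry a changed one, and so escape this turnover to varying degrees.

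The degron is shown here because these genes were chosen for divergent or missing domains. Its core was searched in frame in the coding sequence of each gene (RefSeq, TAIR10.1) as consecutive codons for glycine, tryptophan, proline and proline, with the last base of the glycine and proline codons left free, so that 9 letters were fixed. All 22 canonical genes held a full match, against 1 of the 7 non-canonical genes. In the lines that follow, capitals mark the best match.
*IAA29*: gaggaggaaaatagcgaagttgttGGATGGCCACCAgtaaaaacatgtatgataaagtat
*IAA31*: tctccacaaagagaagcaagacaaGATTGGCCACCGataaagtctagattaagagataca
*BDL*: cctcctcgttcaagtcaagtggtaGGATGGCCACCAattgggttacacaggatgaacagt
*IAA29* thus carried the complete core, from codon 97, and in this feature was like the canonical genes. Apart from the leucine pattern given below, its other domains were not compared. *IAA31* matched 8 of the 9 fixed letters from codon 47. The best matches in the other 5 genes held 4 to 6 letters and are not printed. Alternating leucine codons, the core pattern of an EAR motif, occurred in frame in 6 of the 7 genes, *IAA33* being the exception. They also occurred in 22 of the 22 canonical genes. The search set no limit on position, with first matches as late as codon 63 in *IAA34* and codon 103 in *IAA2*. A match is therefore a sequence pattern and need not be an EAR motif.

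The 250 bases before the annotated start of *IAA20*, chr2:19307464-19307713 read on the plus strand, are shown because *IAA20* had the largest fall of the 4 genes tested (RefSeq, TAIR10.1). Capitals mark CACGTG, the G-box bound by bHLH and bZIP factors, and TGTCTC, the classical auxin response element bound by ARFs.
*IAA20*: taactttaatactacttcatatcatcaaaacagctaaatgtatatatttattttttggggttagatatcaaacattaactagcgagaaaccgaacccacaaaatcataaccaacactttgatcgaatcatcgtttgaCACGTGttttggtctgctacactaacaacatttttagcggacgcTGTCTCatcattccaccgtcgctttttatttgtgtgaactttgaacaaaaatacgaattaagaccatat
The TGTCTC match started 69 bases and the CACGTG match 113 bases before the gene, 44 bases apart. On either strand, TGTCTC occurs in 10.9% and CACGTG in 6.49% of the 27443 promoters of this length, and both occur in 223 of them (0.813%).

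The same search covered the windows of 5 other non-canonical genes. TGTCTC was found once before *IAA32*, 131 bases upstream and on the reverse strand (as GAGACA), and once before *IAA34*, 114 bases upstream. The *IAA34* window lies inside the overlapping gene AT1G15060. The 250-base windows of *IAA29*, *IAA31* and *IAA33* held none of the motifs searched, which says only that these letters are not in the windows. The third motif searched on both strands, TGTCGG, is a second form of the auxin response element with higher affinity for ARFs and was in 0 of the 6 windows, against 6 of the 22 canonical genes and 4.16% of all promoters. TGTCTC was in 3 of the 6 windows and in 5 of the 22 canonical ones. These counts depend on the window length. In the 1000 bases before the start, TGTCTC was in 4 of the 6 windows, 12 of the 22 canonical ones and 39.6% of all promoters, with 3 matches before *IAA31*. TGTCGG was then in 1 of the 6 windows (*IAA29*, at position -572), 7 of the 22 canonical ones and 14.6% of all promoters. A match describes the sequence and is not a measured binding site.

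The libraries held between 30601253 and 37812400 total gene reads, of which 96.4% to 96.9% were unique to 1 gene. CPM values are read counts relative to library size, with the sizes scaled by TMM. A count of 0 allows up to 3 reads, which is 0.0773 to 0.0965 CPM for 1 library and 0.0289 CPM for the 3 libraries of a group together. In the absence of molecular identifiers, all intervals and limits given here express counting error alone.

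Of the 7 genes, 4 passed the filter on low counts, *IAA20*, *IAA29*, *IAA30* and *IAA32*, each through its Mock libraries. These 4 genes were called in edgeR's quasi-likelihood test at an adjusted p below 0.05, and all 4 fell in DEX. Of the 19598 genes tested, 5.5% fell and 6.38% rose. A gene that passes the filter only where it is high is bound to differ between groups, so the count of 4 is a description. In all 4 the DEX libraries lay below the Mock libraries without overlap, as in 14.3% of all genes tested. *IAA20*, *IAA30* and *IAA32* are also on the study's list of genes changed both in this line and in *pPXY:GR-ARF5∆III/IV* plants. That list was made in part with these libraries and took changes in either direction. A place on it is thus no independent evidence of a change here. The log2 fold changes of the 4 genes, DEX over Mock, ranged from -7.67 to -3.91 with a median of -4.39, and the median over all genes tested was -0.01. Of all genes tested, 102 (0.52%) were called with a log2 fold change of -3 or lower. These are whole internodes, so fewer cells of a type and less RNA per cell cannot be told apart.

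*IAA30* had the highest level of the 7 genes in both groups. Together with *IAA20* it is known from developing vascular tissue, where ARF5 and class III HD-ZIP factors activate both and where they dampen the auxin response. *IAA30*, at chr3:22995686-22996809 on the plus strand with 3 exons in the TAIR10.1 model, had 14, 10 and 9 reads in DEX libraries 1, 2 and 3, and 253, 315 and 378 reads in Mock libraries 1, 2 and 3. The highest DEX library was far below the lowest Mock library. Per exon length this was 0.424 ± 0.0928 RPKM in DEX and 12.6 ± 1.24 RPKM in Mock (SD, n = 3 each). The log2 fold change was -4.82 ± 0.20 (SE), with an adjusted p of 3.23e-05 in edgeR. Summed over libraries, the scaled reads in Mock were 28.7 times those in DEX (95% exact interval 20.3 to 41.9).

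*IAA20*, at chr2:19307714-19309071 on the plus strand with 3 exons, was nearly without reads after Dex. It had 1, 0 and 0 reads in DEX libraries 1, 2 and 3, against 52, 113 and 118 reads in Mock libraries 1, 2 and 3. The DEX counts were within the limit that a count of 0 allows, and Mock library 1 was lower than the other Mock libraries. The level was 0.00929 ± 0.0161 CPM in DEX and 2.68 ± 0.884 CPM in Mock (SD, n = 3 each). With 1 read in all of DEX, the Mock to DEX ratio of scaled reads was 283 with a 95% exact interval of 50.4 to 11216. The fitted log2 fold change of -7.67 ± 0.64 (adjusted p = 0.000395, edgeR) depends on how the model treats counts of 0 and is no bound.

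*IAA20* and *IAA30* are the most similar pair among the 7 genes. Their coding sequences were identical at 80.7% of aligned positions (431 of 534). Among the 20 other pairs this value ran from 40.3% to 66.2%. Reads were nevertheless assigned without much ambiguity. All 284 reads of *IAA20* and 977 of the 979 reads of *IAA30* were counted as unique.

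Whether the pair fell to the same degree depended on how the reads near 0 were handled. As a log2 ratio of CPM with a pseudocount of 0.1, *IAA20* over *IAA30* was -1.93 ± 0.14 in DEX and -1.77 ± 0.40 in Mock (SD, n = 3 each), a difference of -0.16 (two-sided exact permutation test, p = 0.6, adjusted over 4 pairs 0.6). A pseudocount of 0.5 turned this difference to 0.94, and leaving out Mock library 2 brought it to 0.000108. A comparison without a pseudocount was added after the values were seen. In it *IAA20* made up 6.67%, 0% and 0% of the reads of the pair in DEX libraries 1, 2 and 3, against 17.0%, 26.4% and 23.8% in Mock libraries 1, 2 and 3. The groups did not overlap, and the exact permutation p was 0.1, the smallest that 3 against 3 libraries allow. Pooled, the share was 1 of 34 reads in DEX (2.94%, exact 95% interval 0.0744% to 15.3%) and 283 of 1229 in Mock (23.0%, 20.7% to 25.5%).

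*IAA29*, at chr4:15583332-15584903 on the plus strand with 4 exons, is known as a target of the PIF transcription factors in shade and warmth. It had 3, 6 and 3 reads in DEX libraries 1, 2 and 3, against 66, 63 and 64 reads in Mock libraries 1, 2 and 3. The Mock libraries differed little from each other, and every DEX library was far below them. The level was 0.119 ± 0.063 CPM in DEX and 1.88 ± 0.238 CPM in Mock (SD, n = 3 each). The log2 fold change was -3.97 ± 0.34, with an adjusted p of 0.00046 in edgeR, and the Mock to DEX ratio of scaled reads was 16.1 (95% exact interval 9.0 to 31.7). *IAA29*, the one non-canonical gene with a complete degron core, thus fell in DEX.

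*IAA32* and *IAA34* are known from the apical hook, where a cleaved fragment of the receptor kinase TMK1 stabilises both proteins. *IAA32*, at chr2:117969-120095 on the plus strand with 5 exons, had 1, 2 and 0 reads in DEX libraries 1, 2 and 3, against 13, 15 and 23 reads in Mock libraries 1, 2 and 3. The groups did not overlap, although all counts were low. The level was 0.0306 ± 0.032 CPM in DEX and 0.484 ± 0.0945 CPM in Mock (SD, n = 3 each). The Mock to DEX ratio of scaled reads was 17.0 (95% exact interval 5.50 to 85.1), and the fitted log2 fold change was -3.91 ± 0.62 (adjusted p = 0.00632, edgeR). *IAA32* overlaps the gene AT2G01210 on the opposite strand, which had 221 reads in DEX and 304 in Mock (log2 fold change -0.46 ± 0.18, adjusted p = 0.18, edgeR). The sources used here do not say whether counting was by strand, so reads of the overlapping part could belong to either gene.

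*IAA34*, at chr1:5181991-5183413 on the minus strand with 5 exons, was low in both groups. It had 2, 3 and 5 reads in DEX libraries 1, 2 and 3, against 2, 4 and 1 reads in Mock libraries 1, 2 and 3, and the groups overlapped. The DEX to Mock ratio of scaled reads was 1.43 with a 95% exact interval of 0.491 to 4.42. Any ratio within this interval, in either direction, is compatible with these counts. The DEX to Mock ratio of *IAA32*, 0.0588, lay outside the interval, which expresses counting error alone. The log2 ratio of *IAA32* over *IAA34* (CPM with a pseudocount of 0.1) was -0.59 ± 0.56 in DEX and 1.81 ± 0.59 in Mock, a difference of -2.40 with no overlap between groups (exact permutation test, p = 0.1, the smallest possible, adjusted over 4 pairs 0.133). With a pseudocount of 0.5 CPM the difference was -0.96, so its size depends on how counts near 0 are handled. *IAA34* overlaps AT1G15060 on the same strand, which had 1419 reads in DEX and 1396 in Mock, and the counting could have split reads between them.

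*IAA31* and *IAA33* were hardly detected in the internode. IAA31 is related to IAA20 and IAA30, and IAA33 is known from the root tip, where it competes with IAA5 for ARF10 and ARF16. *IAA31*, at chr3:6019973-6021147 on the minus strand with 4 exons, had 0 reads in each DEX library, and 1, 2 and 0 reads in Mock libraries 1, 2 and 3. *IAA33*, at chr5:23269914-23271092 on the plus strand with 2 exons, had 0, 1 and 0 reads in DEX libraries 1, 2 and 3, and 0 reads in each Mock library. Both groups were at or under the limit of 3 reads over a group for both genes, and no fold change is given. The differences of -4.26 for *IAA20* over *IAA31* and -4.10 for *IAA30* over *IAA31* (log2 ratio, DEX minus Mock, exact permutation p = 0.1 and adjusted p = 0.133 for each) therefore follow *IAA20* and *IAA30* alone. With a pseudocount of 0.5 CPM they were -2.52 for *IAA20* over *IAA31* and -3.46 for *IAA30* over *IAA31*.

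**Figure D1:**
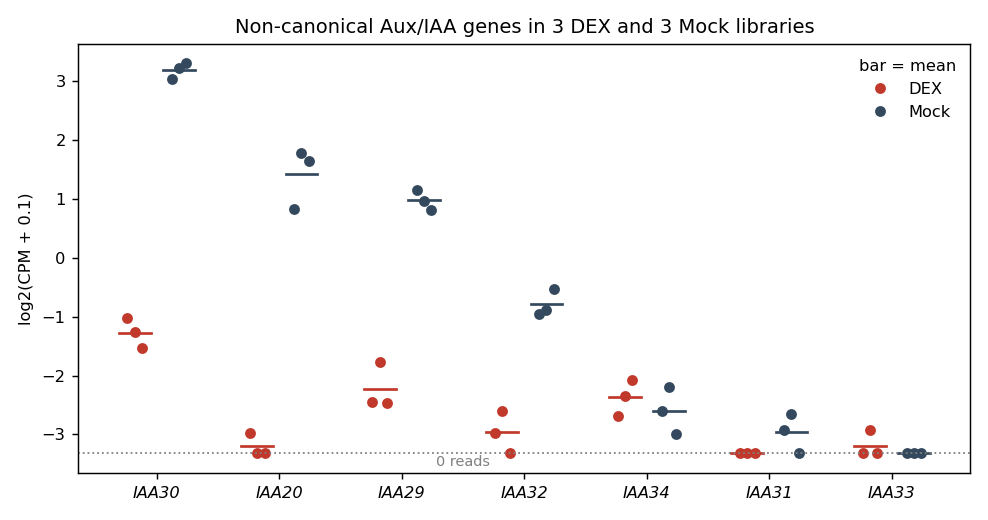
Level of the 7 non-canonical Aux/IAA genes in each library as log2(CPM + 0.1), with DEX left of Mock for each gene. Points are libraries, bars are means of 3 libraries and the dotted line marks 0 reads; the DEX and Mock points are apart for *IAA30*, *IAA20*, *IAA29* and *IAA32* and overlap for *IAA34*, *IAA31* and *IAA33*.

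Ordered by RPKM, a level per exon length, the DEX means were *IAA30* (0.424 ± 0.0928), *IAA34* (0.149 ± 0.0771), *IAA29* (0.118 ± 0.0649), *IAA32* (0.0345 ± 0.0366), *IAA33* (0.0194 ± 0.0336), *IAA20* (0.0136 ± 0.0235) and *IAA31* (0). Below *IAA30* these values rest on 0 to 6 reads per library and have no firm order. In Mock the order was *IAA30* (12.6 ± 1.24), *IAA20* (4.10 ± 1.37), *IAA29* (1.92 ± 0.261), *IAA32* (0.568 ± 0.113), *IAA34* (0.127 ± 0.0852), *IAA31* (0.0372 ± 0.0363) and *IAA33* (0). Mock neighbours from *IAA30* down to *IAA34* did not overlap between libraries, whereas *IAA34* and *IAA31*, and *IAA31* and *IAA33*, did. Among all 29 Aux/IAA genes, *IAA20* ranked 28 by mean RPKM in DEX and 20 in Mock, and *IAA30* ranked 21 in DEX and 18 in Mock.

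Each of the 4 genes that fell had reads of spliced transcripts in Mock. Reads across exon junctions numbered 0 in DEX and 54 in Mock for *IAA20* (19.1% of its Mock reads), and 3 in DEX and 86 in Mock for *IAA30* (9.09%). For *IAA29* they numbered 0 in DEX and 43 in Mock (22.3%), and for *IAA32* 2 in DEX and 12 in Mock (23.5%). Reads over introns were few, with 0 in DEX and 3 in Mock for *IAA20*, 0 in DEX and 9 in Mock for *IAA30*, 1 in DEX and 9 in Mock for *IAA29*, and 0 in DEX and 1 in Mock for *IAA32*.

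The fall of the non-canonical genes was set against the canonical Aux/IAA genes. Of 22 canonical genes 21 were tested, 14 fell, 3 rose and 4 were not called (all genes tested: 5.5% fell, 6.38% rose). Their log2 fold changes ranged from -5.38 to 1.73 with a median of -1.35. Among the 25 Aux/IAA genes tested, *IAA20* ranked 1 by the size of the fall, *IAA30* 3, *IAA29* 7 and *IAA32* 8. *IAA5*, a canonical gene, ranked 2. *IAA20* ranked 1 under all 16 alternatives, whereas *IAA30* ranked 3 to 4, *IAA29* 5 to 8 and *IAA32* 3 to 8 (15 alternatives), so the order below *IAA20* is not firm. The order of *IAA20* and *IAA5* rests on 1 and 8 reads in DEX, which the alternatives share, and is not firm either. Without DEX library 2, *IAA32* ranked 3, *IAA30* 4 and *IAA29* 5. The canonical genes with the smallest adjusted p were *IAA4* (-3.06 ± 0.12, adjusted p = 2.41e-05, edgeR), *IAA13* (-2.80 ± 0.13, 4.07e-05) and *IAA2* (-4.13 ± 0.23, 7.89e-05). The 3 that rose were *IAA18* (1.73 ± 0.23), *IAA28* (1.27 ± 0.11) and *IAA26* (0.55 ± 0.11). The call of *IAA26* was lost without DEX library 1, Mock library 1 or Mock library 2, with edgeR adjusted p between 0.0579 and 0.109. *BDL*, whose reads can include the transgene, stood at 1461 ± 263 CPM in DEX and 1502 ± 473 CPM in Mock (log2 fold change -0.04 ± 0.25, adjusted p = 0.952, edgeR).

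**Figure D2:**
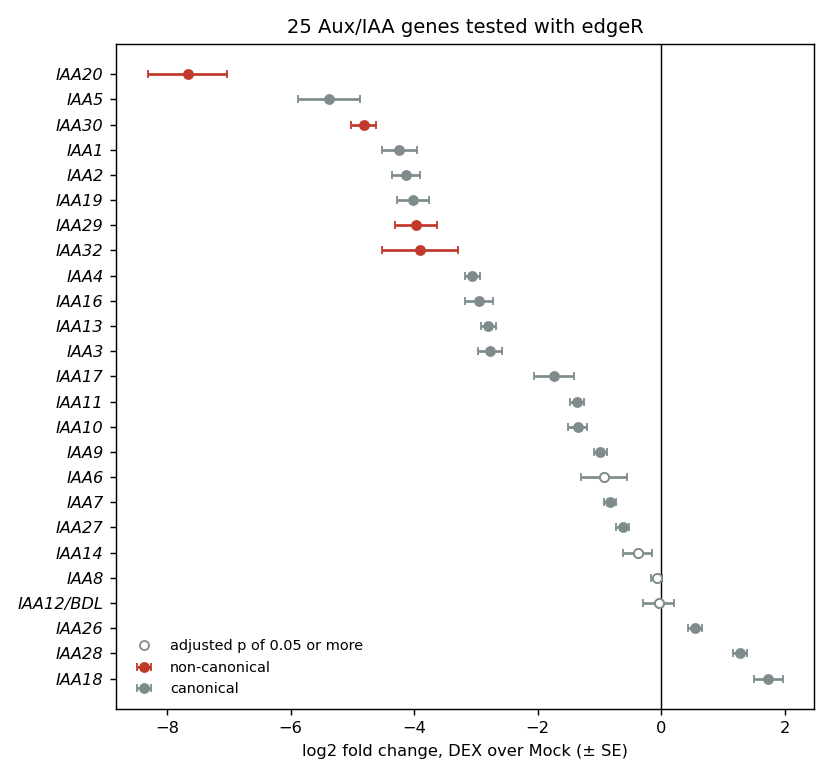
Log2 fold change, DEX over Mock, with its standard error for the 25 Aux/IAA genes that passed the filter on low counts. Red points are the 4 non-canonical genes, grey points the 21 canonical genes and open points the 4 genes that were not called; the red points lie at ranks 1, 3, 7 and 8 of the falls, of which only rank 1 held under all 16 alternatives.

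The non-canonical genes held a smaller share of the family's reads in each DEX library than in any Mock library. They held 21, 22 and 17 reads in DEX libraries 1, 2 and 3, against 387, 512 and 584 reads in Mock libraries 1, 2 and 3. Of all Aux/IAA reads without *BDL*, this was 0.0325%, 0.0415% and 0.0287% in DEX and 0.491%, 0.544% and 0.517% in Mock. The means were 0.0342% ± 0.00661 in DEX and 0.518% ± 0.0265 in Mock (SD, n = 3 each, exact permutation p = 0.1, the smallest possible). Summed CPM of the 7 genes was 0.584 ± 0.12 in DEX and 14.2 ± 1.51 in Mock, a Mock to DEX ratio of 24.3. For 21 canonical genes without *BDL* it was 1703 ± 94.0 in DEX and 2724 ± 188 in Mock, a ratio of 1.60. Abundant genes weigh most in this canonical sum, such as *IAA9* (356 CPM in DEX, 705 in Mock) and *IAA27* (354 and 545). It also includes the 3 genes that rose. The canonical genes *IAA5* (log2 fold change -5.38), *IAA1* (-4.24), *IAA2* (-4.13) and *IAA19* (-4.02) fell steeply. A deep fall was thus not particular to the non-canonical genes. *IAA30* contributed 55.0% ± 10.8 of the non-canonical reads in DEX and 63.9% ± 2.06 in Mock (exact permutation p = 0.4).

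**Figure D3:**
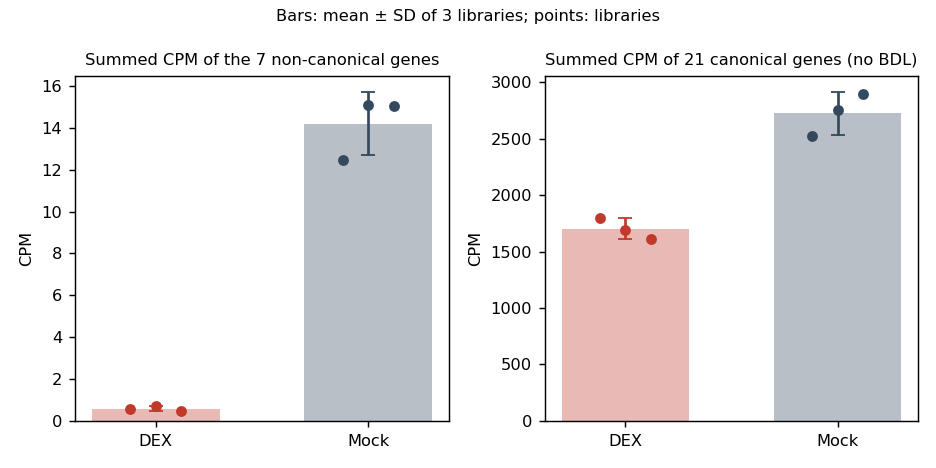
Summed CPM of the 7 non-canonical genes (left) and of 21 canonical Aux/IAA genes without *BDL* (right). Bars are means, error bars SD of 3 libraries and points libraries. The left panel differs 24.3 times and the right panel 1.60 times between Mock and DEX, on scales that start at 0. Abundant genes weigh most in the right panel, where single canonical genes fell far more than the sum.

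Genes known to act with particular members were read from the same fit, in which 5.5% of all genes tested fell and 6.38% rose. Of 5 xylem regulators linked to *IAA20* and *IAA30*, 4 fell and 0 rose. *TMO5*, a bHLH factor downstream of ARF5 in the early vascular tissue, fell by 4.30 ± 0.27 on the log2 scale (adjusted p = 0.000128, edgeR), and its relative *T5L1* had a log2 fold change of -1.57 ± 0.19. *ATHB8*, a class III HD-ZIP gene and direct target of ARF5, had -2.28 ± 0.10 (4.12e-05). *ARF5* itself had -1.06 ± 0.22 (0.0207), and its call was lost without DEX library 2, Mock library 1 or Mock library 2, at adjusted p between 0.054 and 0.0754. The study chose its treatment time by the response of *ATHB8*, so the direction of that gene is not independent evidence.

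Of 10 shade and PIF genes linked to *IAA29*, 7 were tested, 2 fell and 2 rose (all genes tested: 11.9% called in either direction). *PIF5* had a log2 fold change of -1.85 ± 0.20 (adjusted p = 0.00116, edgeR) and *PIF4*, its close relative, 0.83 ± 0.09 (0.00122). *ATHB2*, a shade marker, rose by 1.80 ± 0.22 on the log2 scale (0.00218), whereas *IAA19*, another PIF target, had -4.02 ± 0.25 (0.000124). The list as a whole thus moved both ways while *IAA29* fell. Of the 4 TMK receptor kinase genes that bear on *IAA32* and *IAA34*, 3 were tested and 0 were called in edgeR (2 at an unadjusted p below 0.05, and 0 called in DESeq2 and limma-voom), although library totals in place of TMM gave 1 call. With 3 TMK genes tested, a count of 0 says little beside the 11.9% of all genes called. The most abundant TMK gene, AT2G01820, had a log2 fold change of 0.02 ± 0.17 (adjusted p = 0.959). Of the 4 partners of IAA33, *ARF10* (-1.60 ± 0.18, adjusted p = 0.00132, edgeR) and *IAA5* (-5.38 ± 0.51, 0.00069) fell and 0 rose. The kinase gene *MPK14* had 0.13 ± 0.27 (adjusted p = 0.846).

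For each of the 4 tested members, the genes with the most similar profiles were the 3 nearest by Euclidean distance of log2 CPM over the 6 libraries, each profile centred on its mean. The distances are on a log2 scale and serve as a description only. These log2 CPM values used a prior count of 2, which shrinks the falls of genes with few reads. A near profile thus need not mean an equal log2 fold change. The nearest gene had -5.14 for *IAA20* (-7.67), -3.24 for *IAA29* (-3.97), -4.43 for *IAA30* (-4.82) and -2.57 for *IAA32* (-3.91). Some of the other genes listed fell more than their member. Nearest to *IAA30* were AT1G24530 (0.31), AT4G19820 (0.54) and *BUD2* (0.55), which encodes an enzyme of polyamine synthesis, while the median distance to all genes tested was 5.66. AT1G24530 had 441 reads in DEX and 9500 in Mock, and *BUD2* 64 in DEX and 1465 in Mock. Nearest to *IAA20* were *RTFL16* (0.93), a gene for a small ROTUNDIFOLIA-like peptide with 292 reads in DEX and 10246 in Mock, AT1G21050 (0.96) and AT5G23360 (0.99), with a median of 6.57.

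For *IAA29* the nearest were AT3G56810 (0.58), *LAX2* (0.63), which encodes an auxin influx carrier and had 1152 reads in DEX and 9828 in Mock, and AT1G23350 (0.65), with a median of 4.35. For *IAA32* they were *NHX4* (0.34), a cation/proton antiporter gene, *BRXL1* (0.45), a BREVIS RADIX-like gene, and the sterol desaturase gene *CYP710A3* (0.48), with a median of 3.38. The distances for *IAA20* were larger than those for the other 3 members, and *IAA20* is also the member with counts of 0 in 2 of its libraries.

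Adjacent genes were read beside the members because the counting may not have used strand. AT3G62110 lies 211 bases after the end of *IAA30* and runs towards it on the minus strand. It had 1542 reads in DEX and 6439 in Mock, with a log2 fold change of -2.05 ± 0.20 (adjusted p = 0.000776, edgeR), and its part in the result for *IAA30* was not tested. AT4G32285, 539 bases after *IAA29* on the same strand, had a log2 fold change of -0.41 ± 0.12 (adjusted p = 0.0721). AT2G01190, which ends 218 bases before *IAA32* on the same strand, had -0.32 ± 0.09 (adjusted p = 0.0585). AT2G46995, 322 bases after *IAA20*, had 1 read in DEX and 0 in Mock.

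The libraries matched their labelled tissue. Summed CPM of 4 xylem markers was 3079 to 4095 in DEX and 3535 to 3833 in Mock, and 0 of the 4 were called in edgeR (1 at an unadjusted p below 0.05). The 4 flower markers measured summed to 0.218 to 0.32 CPM in DEX and 0.225 to 0.592 CPM in Mock. The 3 root markers summed to at most 0.223 CPM in DEX and 0.147 CPM in Mock, and 2 of them were at 0. Some markers of cell types in the stem differed between groups. The cambium markers *PXY* and *WOX4* summed to 86.4 to 150 CPM in DEX and 170 to 215 CPM in Mock, and *WOX4* fell (-1.89 ± 0.17, adjusted p = 0.000493, edgeR) while *PXY* was not called (-0.52 ± 0.21, 0.189). The paper lists *WOX4* among the genes repressed by Myc-GR-bdl, in part from these libraries. It reports no response of a *PXY* promoter reporter in plants with Myc-GR-bdl under the *PXY* promoter, 1 day after Dex. The starch sheath markers *SCR* and *SHR* summed to 23.3 to 25.4 CPM in DEX and 30.7 to 41.5 CPM in Mock, and *SHR* fell (-0.86 ± 0.13, 0.00572) while *SCR* was not called (-0.05 ± 0.12, 0.883). Of 3 phloem markers, with sums of 199 to 260 CPM in DEX and 255 to 308 CPM in Mock, *CALS7* rose (0.38 ± 0.09, 0.0374). The other phloem markers were not called, *SUC2*, the most abundant, at -0.50 ± 0.16 (0.0873) and *APL* at 0.44 ± 0.12 (0.0515). The share of reads on 4 ribosomal RNA genes was 0.126% to 0.167% in DEX and 0.195% to 0.584% in Mock. The part of these differences in the falls of the non-canonical genes was not tested.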

How the data were processed

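Single-end reads were aligned by the authors to the TAIR10 genome and counted per gene with CLC Genomics Workbench. Libraries marked the strand, and the use of strand in counting was not given in the sources used here. Counts were deposited for each gene (total, unique, exon, junction and intron reads) with RPKM values, which the authors computed from exon reads, the exon length in bases and total gene reads. The formula rebuilt the RPKM values to a relative difference under 1e-12. According to the labels RNA of several samples was pooled, and p-values measure the spread between these libraries.

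Entries without a gene name (5 of 33323, 0.093% to 0.135% of reads) were left out and 2 duplicated identifiers summed, which left 33316 genes. Of these, 32828 matched TAIR10.1, which gave positions and sequences, since the tables hold no coordinates. Total gene reads of 3 DEX and 3 Mock libraries, 30601253 to 37812400 each, were tested with edgeR 4.0.16 in R 4.3.3 (filterByExpr, TMM, two-sided quasi-likelihood F test, Benjamini-Hochberg over 19598 genes, adjusted p below 0.05). The filter removed 13718 genes holding 0.0298% of reads. The biological coefficient of variation was 15.8%. The SE was derived from the F statistic as the absolute log2 fold change over its square root. The procedure was tested on simulated data. Shares and ratios were compared with exact permutation tests (SciPy 1.17.1), ratios of summed reads with exact conditional binomial intervals (95%), and coding sequences were aligned with Biopython 1.88. The sequence before *IAA30* is not reported here. DESeq2 1.42.0 and limma 3.58.1 served as alternatives, beside other scalings, filters, read columns, a replicate block and leaving out each library.

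The members, lists and tests were chosen with earlier results of these data known. Genes named beside the 7 members were the canonical genes with the 3 smallest adjusted p, those that rose and *BDL*, the called genes of each partner list or else its most abundant one, and the 3 nearest profiles of each tested member. *MPK14*, the adjacent genes, *WOX4*, *PXY* and the starch sheath and phloem markers were named after their values were seen.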

Additional observations from a re-analysis of the deposited data

How the results depend on the processing

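The calls of *IAA20*, *IAA29* and *IAA30* were kept under all 16 alternatives and that of *IAA32* under 15, since the stricter filter (1 CPM in 3 libraries) left *IAA32* untested. Log2 fold changes, DEX over Mock, ranged from -9.53 to -6.97 for *IAA20*, -4.44 to -3.76 for *IAA29*, -4.996 to -4.65 for *IAA30* and -4.82 to -3.34 for *IAA32* (adjusted p at most 0.0274). Without a filter, 24839 genes were tested in edgeR and *IAA31*, *IAA33* and *IAA34* had adjusted p of 0.446, 0.638 and 0.784. The depth limits these 3 genes, which had at most 5 reads in any library.

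The *IAA20* to *IAA30* log2 ratio difference was 0.94 with a pseudocount of 0.5 CPM (exact permutation p = 0.1) and ranged from -0.38 to 0.000108 when single libraries were left out, its highest value without Mock library 2. The cause was not tested. Over all genes, leaving out single libraries gave 1305 (without Mock library 2) to 2198 calls in place of 2327. Without Mock library 2, 690 genes fell and 615 rose. With library totals 1278 genes fell and 1016 rose, against 1077 and 1250 with TMM. TMK genes called numbered 1 with library totals and 1 with the replicate block, in place of 0. The log2 fold change of AT2G01820 (*TMK3*) turned to -0.0461 with library totals and -0.0174 with upper-quartile factors, and ranged from -0.12 to 0.18 when single libraries were left out, with a negative sign without DEX library 1, Mock library 2 or Mock library 3. That of *BDL* turned to 0.0015 with limma-voom and ranged from -0.26 to 0.20 when single libraries were left out, with a positive sign without DEX library 1 or Mock library 3, and neither gene was called.

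Replicate numbers were not used as pairs in the main test, and whether they pair the libraries was not settled. Deviations of same-numbered libraries correlated at 0.516, 0.0188 and 0.506. DEX library 1 with Mock library 3 gave -0.468, and DEX library 3 with Mock library 1 gave -0.536. DEX library 2, however, correlated best with Mock library 1 (0.127). A replicate block raised the calls to 3980 (1722 fell, 2258 rose) and kept the 4 non-canonical ones.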
